A study of Mus musculus with 6 samples.

Results

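The motile axoneme gene set held 61 of the 24354 gene names in the expression table of mouse choroid plexus (ChP). Members were taken by gene symbol, under a rule chosen with earlier results of these data known. They were the numbered dynein heavy chain (Dnah), dynein intermediate and light chain (Dnaic, Dnal, Dnali1) and dynein assembly factor (Dnaaf) genes. Numbered tektin (Tekt), radial spoke (Rsph) and cilia and flagella associated protein (Cfap) genes were taken as well. Also in the set were Spag6, Spag16, Spag17, Hydin, Ccdc39, Ccdc40, Ccdc65, Ccdc114, Tmem212, Enkur, Fam183b and Riiad1. All 61 were found in the GENCODE annotation of the mouse build mm10. Their levels were compared between ChP of adult mice, 60 days old by the labels, and ChP of embryos at E16.5, with 3 libraries per age.

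Translating ribosome affinity purification (TRAP) recovers the mRNA that sits on tagged ribosomes. All 6 libraries came from the same genotype, FoxJ1:cre x bacTRAP (EGFP:L10a), in which Cre recombinase under the Foxj1 promoter switches on a ribosomal protein, L10a, fused to EGFP. The cells sampled were therefore those in which the Foxj1 promoter had been active, and no untagged control library was among the samples. In the methods an adult sample pooled 3 mice, aged 8 weeks, and an E16.5 sample pooled 3 litters. The series description counts 3 mice for each age, and the number of animals behind a replicate was not settled. If the samples were not separate pools, the p-values given here measure technical spread only.

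A motile cilium is built on a ring of outer microtubule doublets around a central pair. Outer and inner dynein arms slide the doublets past each other, radial spokes carry signals between the central pair and the arms, and tektins and other microtubule inner proteins stiffen the doublets from within. Dynein arms are put together in the cytoplasm by dedicated assembly factors before they enter the cilium. Epithelial cells of the ChP carry tufts of cilia on the surface that faces the ventricle, and the neighbouring ependyma carries beating cilia.

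Gene levels were FPKM as the authors deposited them, a level per length that divides the fragments of a gene by transcript length and by the reads mapped in the library. Depth was estimated from the smallest steps between low FPKM values. Relative to adult replicate 3, the shallowest, it was 1.28 and 2.89 in the other 2 adult libraries and 4.09 to 5.15 in the E16.5 libraries. Of the 11601 genes tested, 10.3% to 36.4% were listed at 0 in an adult library and 3.68% to 4.02% in an E16.5 library, and genes that every cell uses were among those at 0. A 0 in the table can be a failed estimate, so a member at 0 in an adult library is given as listed at 0, with no ratio of means, and its fitted change on the log2(FPKM + 1) scale depends on the pseudocount. In the adult libraries, 32.7% to 51.7% of all summed FPKM belonged to a single short gene, Mir6236, against 13.3% to 15% in E16.5 replicates 1 and 3, and in E16.5 replicate 2 Mir5114 was the largest gene with 17.2%.

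Axoneme genes were lower in the adult than in the E16.5 ChP, and none passed the test as higher. Of the 61 members, 52 had a mean above 1 FPKM over the 6 libraries and were tested with limma on log2(FPKM + 1). At an adjusted p under 0.05 (Benjamini-Hochberg, over all genes tested), 22 members (42.3%) were lower in the adult, where the background over all genes tested was 8.83% lower and 2.12% higher. Without adjustment, 35 members had a p under 0.05 with a lower adult level (25.9% of all genes) and 1, Dnal1, with a higher one (5.34%). Every adult library lay below every E16.5 library for 37 of the 52 members (71.2%), where the share over all genes tested was 31.0%. The median change of the tested members was -2.11 on the log2 scale, adult minus E16.5, while the median over all genes tested was itself -0.86. In a bulk sample, fewer cells of a type and less RNA per cell cannot be told apart.

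Summed over the 61 members, FPKM was 898, 1098 and 903 in adult replicates 1 to 3. In the E16.5 replicates the sum was 4867, 4692 and 4251 FPKM. The mean sum was 4.76-fold higher at E16.5, and the exact permutation test gave p = 0.1, two-sided, the smallest that 3 against 3 libraries allow. Cfap126 alone made up 23.7% to 24.8% of the E16.5 sums and 5.86% to 11.8% of the adult sums, and without it the sum was 3.95-fold higher at E16.5. The median member level in a library, 2.93 to 3.27 on the log2(FPKM + 1) scale in the adult and 4.81 to 5.20 at E16.5, did not overlap between the ages. All 4 members at 0 throughout the E16.5 libraries, Dnah17, Rsph6a, Tekt3 and Tmem212, were at or near 0 in the adult too, with at most 2.63 FPKM.

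**Figure D1:**
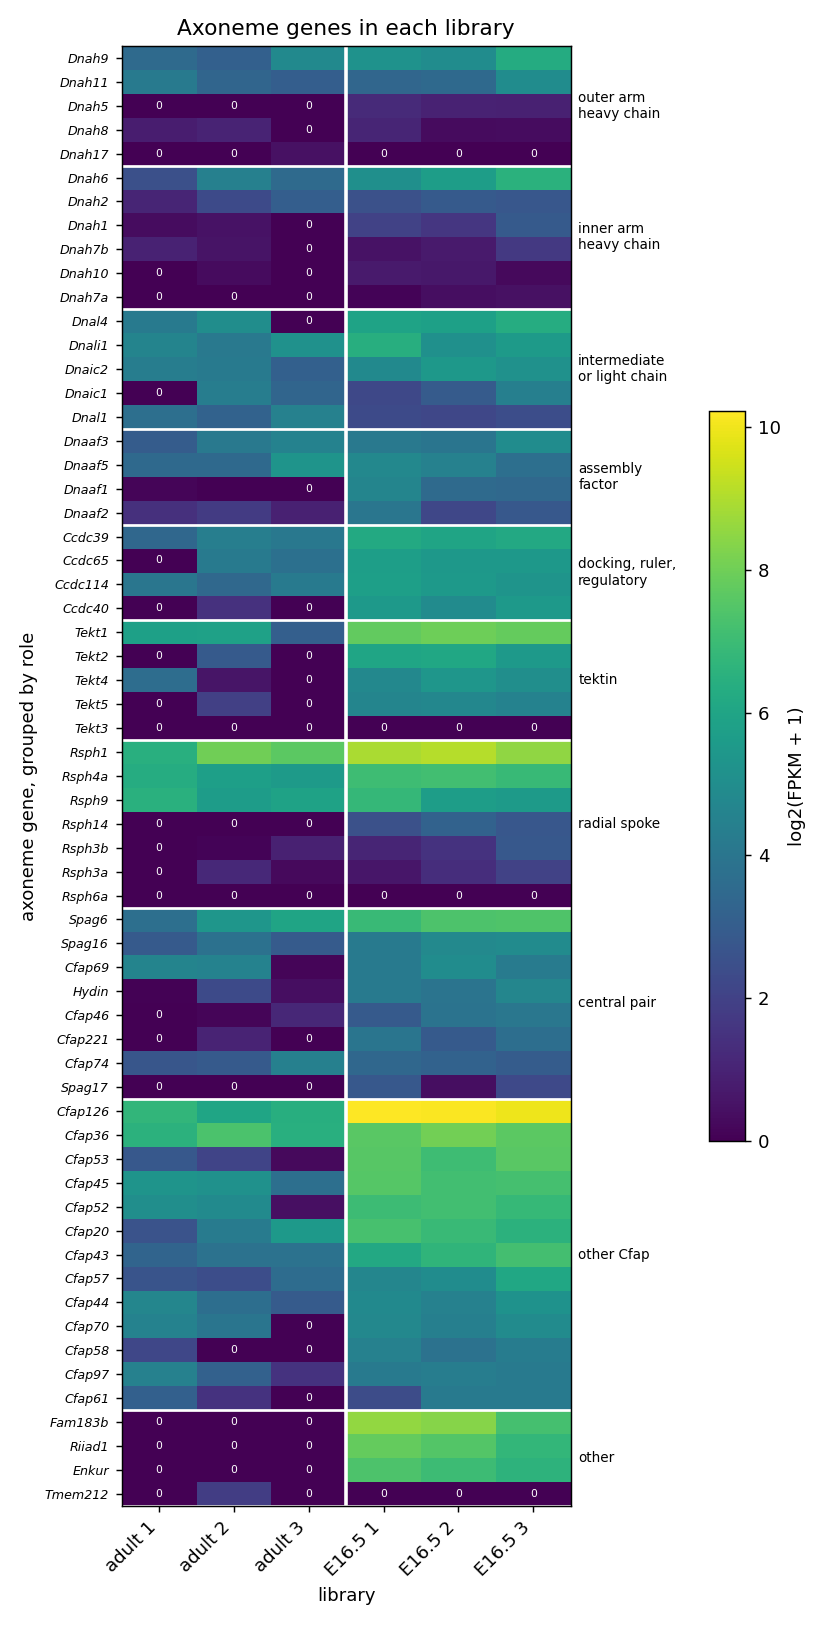
Level of each of the 61 axoneme genes, as log2(FPKM + 1), in each of the 3 adult and 3 E16.5 libraries, with genes down the side grouped by role and 0 marking a gene listed at 0. The E16.5 columns are brighter for most genes, and Cfap126 is the brightest, at 1007 to 1199.5 FPKM.

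The size of the difference varied among members. Members with 0 in an adult library did not make up the whole difference: among the 31 members above 0 in all 6 libraries, 11 (35.5%) were lower in the adult, the median change was -1.47, and 5.41% of the genes above 0 in all 6 libraries were lower. The mean of these 31 was at least 2-fold higher at E16.5 for 20 (64.5%, and 25.5% of all genes above 0 in all 6 libraries), at least 4-fold for 12 (38.7%, and 6.86%) and at least 8-fold for 4 (12.9%, and 1.6%). The changes of the tested members ran from -8.06 for Fam183b to 1.52 for Dnal1. Of the 52, 50 had a negative sign, as did 8443 of all 11601 genes tested.

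**Figure D2:**
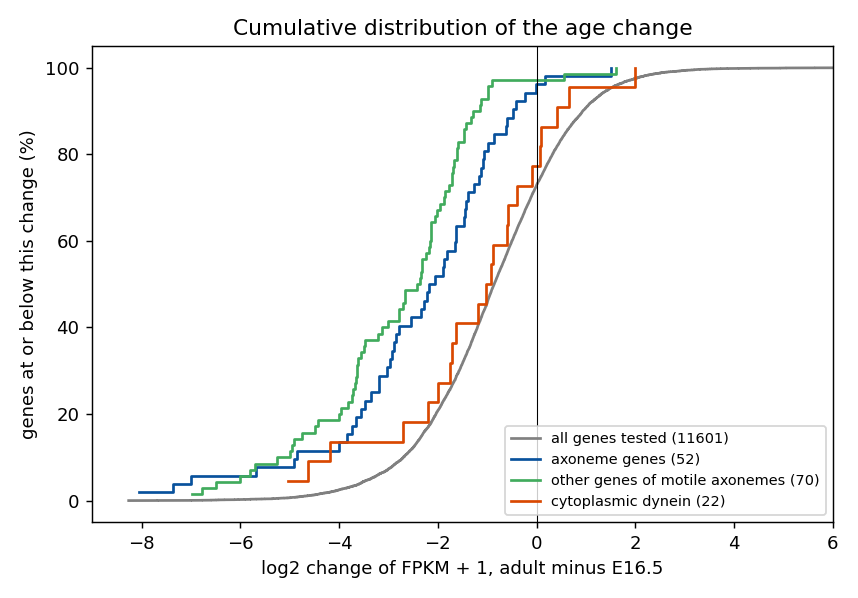
Cumulative distribution of the log2 change of FPKM + 1, adult minus E16.5, over all genes tested, the 52 tested axoneme genes, the 70 tested genes of a second list of motile axoneme genes and the 22 tested cytoplasmic dynein genes. The axoneme curve lies to the left of that for all genes, with medians of -2.11 and -0.86, while cytoplasmic dynein has a median of -0.97.

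Promoters of the members are shown because axoneme genes are known targets of RFX factors, which bind X-box motifs, and of the forkhead factor Foxj1. RefSeq promoters of GRCm38.p6, the build also called mm10, were read from 250 bases before to 50 bases after the start of a transcript, and were found for 55 of the 61 members. The X-box, spelled here as GTNNCC and GNAAC with 3 bases of any kind between them and searched on both strands, stood in the promoters of 11 of the 55 members (20%), against 2.49% of the 27025 genes with a promoter and 3.63% of the genes tested. Of the 12 X-boxes, 9 (75.0%) began within 50 bases of the start, against 41.7% of the 737 X-boxes in all promoters. Among the members past the threshold that held an X-box, the promoters of the 3 with the largest changes are given 5′ to 3′ on the strand of the gene, with the X-box in capitals. They are Enkur, chr2:21205316-21205615, minus strand, Hydin, chr8:110266727-110267026, plus strand, and Cfap45, chr1:172520880-172521179, plus strand. In Hydin and Cfap45 the X-box lies on the strand opposite to the gene, so the capitals show its reverse complement.
Enkur: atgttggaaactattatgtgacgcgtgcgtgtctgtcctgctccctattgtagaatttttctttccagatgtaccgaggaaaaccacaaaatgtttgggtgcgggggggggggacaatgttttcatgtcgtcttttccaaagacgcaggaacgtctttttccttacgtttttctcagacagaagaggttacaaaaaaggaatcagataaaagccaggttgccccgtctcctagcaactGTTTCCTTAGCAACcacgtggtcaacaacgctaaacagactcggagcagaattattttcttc
Hydin: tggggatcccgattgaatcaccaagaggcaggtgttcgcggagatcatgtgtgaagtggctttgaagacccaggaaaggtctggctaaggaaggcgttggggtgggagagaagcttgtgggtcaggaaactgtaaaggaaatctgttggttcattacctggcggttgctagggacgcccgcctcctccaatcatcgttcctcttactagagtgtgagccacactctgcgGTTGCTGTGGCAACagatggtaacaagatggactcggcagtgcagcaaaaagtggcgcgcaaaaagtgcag
Cfap45: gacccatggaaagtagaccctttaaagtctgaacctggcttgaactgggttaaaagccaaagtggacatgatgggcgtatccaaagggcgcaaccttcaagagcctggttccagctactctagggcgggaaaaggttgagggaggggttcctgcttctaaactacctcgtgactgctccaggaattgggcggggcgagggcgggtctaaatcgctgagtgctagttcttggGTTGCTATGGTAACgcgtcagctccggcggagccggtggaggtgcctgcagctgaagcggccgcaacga

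In these promoters the X-box began 12, 21 and 19 bases before the start, in that order. Shorter stretches around the X-boxes of 4 more members are given to show how the letters vary. Ccdc114 was lower in the adult, and the other 3 had negative changes that did not pass the threshold. In Cfap44 and Dnaaf2 the capitals again show the reverse complement of the X-box.
Ccdc114: ggccccttGTCTCCCCAGTAACcagactac
Cfap44: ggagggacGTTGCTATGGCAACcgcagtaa
Cfap61: gccgcgtcGTTTCCTTAGCAACtgtgtgcg
Dnaaf2: tcccaggcGTTACTATGGCAACaaagcacg

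An X-box stood in 4 of the 19 members with a promoter that were lower in the adult (21.1%) and in 6 of the 27 tested members that did not pass the threshold (22.2%). The RFX half-site GTTGCCA, which can overlap an X-box, was in the promoters of 9 of the 55 members (16.4%, and 5.02% of all genes with a promoter). The forkhead motif GTAAACA was in 4 (7.27%, and 4.05%). A match describes the letters only, and binding was not measured.

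The 11 dynein heavy chains, the motors of the arms, are among the longest genes of the set. None passed the threshold in either direction, and 6 were too low to be tested, with means of at most 1 FPKM. Dnah9, an outer arm heavy chain on chr11:65831282-66168551, had 10.5, 7.89 and 28.01 FPKM in the adult and 35.8, 30.1 and 77.8 FPKM at E16.5. Its change was -1.64 ± 0.59 (SE; adjusted p = 0.110, limma). Dnah11, another outer arm heavy chain, had 17.7, 9.18 and 7.36 FPKM in the adult and 9.45, 10.4 and 30.1 FPKM at E16.5, with overlap between the ages. Among inner arm heavy chains, Dnah6, chr6:73017606-73221651, had the highest level, with 4.71, 20.9 and 10.6 FPKM in the adult and 33.2, 50.2 and 92.0 FPKM at E16.5, at a change of -2.27 ± 0.61 (adjusted p = 0.0545). All adult libraries lay below all E16.5 libraries for Dnah6 and Dnah9, and E16.5 replicate 3 was the highest library for Dnah6, Dnah9 and Dnah11. Dnah2 overlapped between the ages, at 1.10, 3.91 and 7.30 FPKM in the adult and 4.78, 6.52 and 5.92 FPKM at E16.5. Dnah1 was listed at 0.282, 0.400 and 0 FPKM in the adult and had 3.02, 2.09 and 6.38 FPKM at E16.5, with a change of -1.89 ± 0.61 (adjusted p = 0.0850). Dnah5, the outer arm heavy chain paired with Dnah9 or Dnah11 in airway cilia, was low, listed at 0 in every adult library and at 1.33, 0.991 and 0.915 FPKM at E16.5. Dnah7a and Dnah7b share 38.6% and 30.0% of their 50-base stretches with other genes, so reads could have been split between them.

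Among the 5 dynein intermediate and light chains, no gene passed the threshold and the median change was -1.06. Dnali1, an inner arm light intermediate chain, had 23.6, 16.8 and 35.2 FPKM in the adult and 84.1, 34.3 and 46.5 FPKM at E16.5, so that its highest adult library lay above its lowest E16.5 library. Dnaic2, an outer arm intermediate chain, had 19.2, 17.5 and 7.83 FPKM in the adult and 27.6, 42.5 and 35.6 FPKM at E16.5. Its change was -1.26 ± 0.47 (adjusted p = 0.117), without overlap between the ages. The adult libraries disagreed for Dnal4, a light chain, at 16.8, 31.4 and 0 FPKM against 60.4, 55.8 and 79.8 FPKM at E16.5, and for Dnaic1, the other outer arm intermediate chain, at 0, 19.4 and 8.99 FPKM against 3.66, 6.597 and 20.2 FPKM. Dnal1, the outer arm light chain, was the 1 member with every adult library above every E16.5 library. It had 12.4, 8.18 and 21.7 FPKM in the adult and 3.89, 3.58 and 4.31 FPKM at E16.5. Its change of 1.52 ± 0.59 did not pass the threshold (adjusted p = 0.128), and over all genes tested 7.39% had every adult library above every E16.5 library.

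Of the 4 dynein assembly factors, Dnaaf1 was lower in the adult, at 0.0975 FPKM in replicate 1 and at or near 0 in the other 2, against 24.4, 10.7 and 9.99 FPKM at E16.5 (change -3.84 ± 0.65, adjusted p = 0.0156). It shares 19.3% of its 50-base stretches with another gene, Taf1c, with which reads may be split. Dnaaf3 and Dnaaf5 overlapped between the ages, with changes of -0.48 and -0.24. Dnaaf3 had 6.94, 16.6 and 22.2 FPKM in the adult and 16.7, 14.9 and 30.5 FPKM at E16.5. Dnaaf5 had 10.4, 10.2 and 38.0 FPKM in the adult and 26.2, 21.9 and 12.1 FPKM at E16.5. For Dnaaf2, which did not pass, 68.1% of the 50-base stretches were shared with another gene, and its values are uncertain.

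Of the 4 genes whose proteins set where the arms and bridges sit on the doublet, 3 were lower in the adult (8.83% of all genes tested). Ccdc39 and Ccdc40, partners in the molecular ruler that spaces the inner arms and regulatory complexes, both passed. For Ccdc39, chr3:33812362-33844310, FPKM was 9.61, 19.9 and 16.0 in the adult and 73.8, 62.5 and 71.7 at E16.5. This was a 4.57-fold higher mean at E16.5, with a change of -2.17 ± 0.38 (adjusted p = 0.0183). Ccdc40, chr11:119228572-119265238, was listed at 0, 1.77 and 0 FPKM in the adult and had 44.6, 29.8 and 45.9 FPKM at E16.5 (adjusted p = 0.00801). The partners differed in the adult libraries as listed, where Ccdc39 was above 0 in all 3 and Ccdc40 in 1. Ccdc39 shares 14.3% of its 50-base stretches with other genes, mainly Ttc14, with which reads may be split. A 0 of Ccdc40 can be a failed estimate, so the difference between the partners is uncertain. Ccdc114, of the outer arm docking complex, had 15.3, 10.1 and 17.6 FPKM in the adult and 53.5, 45.6 and 37.8 FPKM at E16.5, with a change of -1.63 ± 0.39 (adjusted p = 0.0410). Ccdc65, of the nexin-dynein regulatory complex, had 0, 17.6 and 12.9 FPKM in the adult and 52.4, 42.6 and 43.5 FPKM at E16.5, and did not pass (adjusted p = 0.113).

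Tektins, filament proteins of the doublet wall, were lower in the adult for 3 of the 4 tested (8.83% of all genes tested). The group had a summed level 7.34-fold higher at E16.5. Tekt1, chr11:72344722-72362442, was the most abundant, with 55.5, 57.0 and 7.59 FPKM in the adult and 220.4, 248 and 223 FPKM at E16.5 (change -2.93 ± 0.71, adjusted p = 0.0416). Tekt2, chr4:126322121-126325688, was listed at 0, 6.55 and 0 FPKM in the adult and had 63.6, 66.8 and 45.6 FPKM at E16.5 (change -4.91 ± 0.86, adjusted p = 0.0176). Tekt5 followed the same pattern at 0, 2.87 and 0 FPKM against 24.0, 25.7 and 22.4 FPKM (adjusted p = 0.0206). Adult libraries of Tekt1, Tekt2, Tekt4 and Tekt5 all lay below the E16.5 libraries. Tekt2 shares 13.8% of its 50-base stretches with other genes, mainly Gm12945. Tekt4 had 11.7, 0.509 and 0 FPKM in the adult and 26.0, 41.02 and 32.5 FPKM at E16.5, and did not pass (adjusted p = 0.0524). Tekt3, which is known from sperm flagella, was listed at 0 in all 6 libraries.

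Rsph1, Rsph4a and Rsph9 were, with Cfap36 and Cfap126, the 5 members with the highest mean levels in the adult. Rsph1, a spoke head protein on chr17:31255019-31277383, had 86.7, 257 and 202 FPKM in the adult and 490.2, 545 and 365 FPKM at E16.5. Its mean was 2.57-fold higher at E16.5 and its change of -1.47 ± 0.42 did not pass (adjusted p = 0.0631). Rsph4a, of the same spoke head, had 80.2, 53.8 and 46.1 FPKM in the adult and 131, 139 and 118 FPKM at E16.5 (change -1.13 ± 0.30, adjusted p = 0.0541). Neither gene overlapped between the ages. Rsph9, the third spoke head gene, overlapped, with 89.1, 48.8 and 59.2 FPKM in the adult, 65.7 ± 20.9 (SD, n = 3), and 112, 50.9 and 46.2 FPKM at E16.5, 69.8 ± 36.9 (SD, n = 3). Its change was -0.01 ± 0.43 (adjusted p = 0.988). Rsph14 was the 1 spoke gene that passed, listed at 0 in every adult library and at 4.88, 8.35 and 5.85 FPKM at E16.5 (adjusted p = 0.0263). Rsph3a and Rsph3b, near-identical genes of the spoke stalk that share 58.1% and 69.2% of their 50-base stretches with other genes, were low at both ages and cannot be separated with certainty.

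Central pair genes were lower in the adult for 4 of 8 (8.83% of all genes tested), with a median change of -2.01. Spag6, a central pair protein with armadillo repeats, was the most abundant, with 12.2, 40.99 and 61.0 FPKM in the adult and 120, 164 and 169 FPKM at E16.5 (change -2.21 ± 0.56, adjusted p = 0.0469). Hydin, whose loss causes hydrocephalus in mice, had 0.0327, 3.87 and 0.314 FPKM in the adult and 16.8, 14.4 and 24.6 FPKM at E16.5 (change -3.35 ± 0.77, adjusted p = 0.0368). All adult values of both genes lay below all E16.5 values, and adult replicates of Hydin differed among themselves by a wide margin. Cfap46, of a central pair projection, was listed at 0, 0.0985 and 1.18 FPKM in the adult and had 6.41, 13.7 and 15.7 FPKM at E16.5 (adjusted p = 0.0318). Cfap221, of a central pair projection as well, was listed at 0, 1.03 and 0 FPKM in the adult and had 14.5, 6.54 and 11.9 FPKM at E16.5 (adjusted p = 0.0298). Spag16, the partner of Spag6 in the central pair, had 6.44, 13.1 and 6.56 FPKM in the adult and 17.8, 27.3 and 29.9 FPKM at E16.5, and did not pass (change -1.45 ± 0.49, adjusted p = 0.0960). Spag17 was listed at 0 in every adult library, yet it was uneven at E16.5, at 6.07, 0.289 and 3.81 FPKM, and did not pass. It shares 13.5% of its 50-base stretches with other genes, mainly Wdr3. Cfap69 and Cfap74 overlapped between the ages. Adult replicate 3 stood apart for both, at 0.107 FPKM for Cfap69 against 23.3 and 22.1 in the other 2 adult libraries, and at 20.9 FPKM for Cfap74 against 5.71 and 6.49. At E16.5, Cfap69 had 17.0, 30.6 and 18.2 FPKM and Cfap74 had 9.62, 8.19 and 6.98 FPKM. The change was -1.38 ± 1.17 for Cfap69 (adjusted p = 0.439, limma) and 0.17 ± 0.63 for Cfap74 (adjusted p = 0.873, limma).

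The 13 other Cfap genes held the most abundant member and 7 that were lower in the adult (8.83% of all genes tested). Their summed level was 6.50-fold higher at E16.5. Cfap126, also called Flattop, a protein of the axoneme and basal body encoded on chr1:171113918-171126967, had 106, 64.3 and 84.9 FPKM in the adult and 1199.5, 1164 and 1007 FPKM at E16.5. Its mean was 85.0 ± 20.7 FPKM (SD, n = 3) in the adult and 1123 ± 102 FPKM (SD, n = 3) at E16.5, 13.2-fold higher, with a change of -3.73 ± 0.26 (adjusted p = 0.000975). The spread among replicates was small beside that difference, and the gene had the smallest SE of the set. Cfap53, a microtubule inner protein that is also needed for left-right asymmetry, had 6.10, 3.30 and 0.195 FPKM in the adult and 188, 131 and 197 FPKM at E16.5 (change -5.68 ± 0.67, adjusted p = 0.00523). Its mean was 53.8-fold higher at E16.5. For Cfap43, which ties an inner arm to the doublet, FPKM was 8.84, 13.6 and 13.3 in the adult and 72.1, 103 and 144 at E16.5 (change -3.02 ± 0.39, adjusted p = 0.00741). Cfap44, its partner, overlapped between the ages, at 24.99, 11.9 and 6.65 FPKM in the adult and 27.6, 21.7 and 36.0 FPKM at E16.5.

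Of 3 further genes for proteins of the doublet, Cfap45 and Cfap20 were lower in the adult. Cfap45, a microtubule inner protein, had 37.8, 35.4 and 12.501 FPKM in the adult and 185, 137 and 148 FPKM at E16.5 (change -2.55 ± 0.46, adjusted p = 0.0190). Cfap52, which binds beside it in the doublet, had 31.8, 28.5 and 0.327 FPKM in the adult and 127, 139.6 and 115 FPKM at E16.5, and did not pass (adjusted p = 0.0843). Cfap20, of the inner junction of the doublet, had 5.15, 18.2 and 43.7 FPKM in the adult and 150.2, 121 and 93.8 FPKM at E16.5 (change -2.79 ± 0.68, adjusted p = 0.0428). No adult library of these 3 genes reached an E16.5 library, and adult replicate 3 was the lowest adult library for Cfap45 and Cfap52 and the highest for Cfap20. Cfap57 had 5.39, 4.396 and 11.3 FPKM in the adult and 24.98, 30.3 and 67.2 FPKM at E16.5 (adjusted p = 0.0415). Cfap58, known from sperm flagella, was listed at 3.57, 0 and 0 FPKM in the adult and had 21.5, 13.3 and 18.8 FPKM at E16.5 (adjusted p = 0.0359). Cfap36, which binds a small GTPase of ciliary traffic and is not an arm or doublet protein, did not pass, with 94.4, 160.2 and 87.3 FPKM in the adult and 197, 261 and 199 FPKM at E16.5 (change -0.98 ± 0.31, adjusted p = 0.0840).

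The most negative changes of the set were those of 3 short genes, all listed at 0 in every adult library. Fam183b, chr11:58792797-58801960, had 378, 334 and 147 FPKM at E16.5 (adjusted p = 0.000682). Riiad1, chr3:94464983-94480341, had 223, 180.3 and 109 FPKM (adjusted p = 0.000939). Enkur, chr2:21180731-21205365, which codes for enkurin, a calmodulin-binding protein of cilia and sperm, had 166, 128 and 96.5 FPKM (adjusted p = 0.000975). In all 3 genes E16.5 replicate 1 was the highest and replicate 3 the lowest. Their changes of -8.06, -7.37 and -7.00 rest on those zeros, depend on the pseudocount and are not fold changes. With these, Rsph14 and Spag17, 5 of the 52 tested members (9.62%) were listed at 0 in all adult libraries, where the share over all genes tested was 6.46%, and the median change of the other 47 was -1.89. Tmem212, a membrane protein used as a marker of ependyma, was too low to be tested, at 0, 2.63 and 0 FPKM in the adult and 0 in every E16.5 library.

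**Figure D3:**
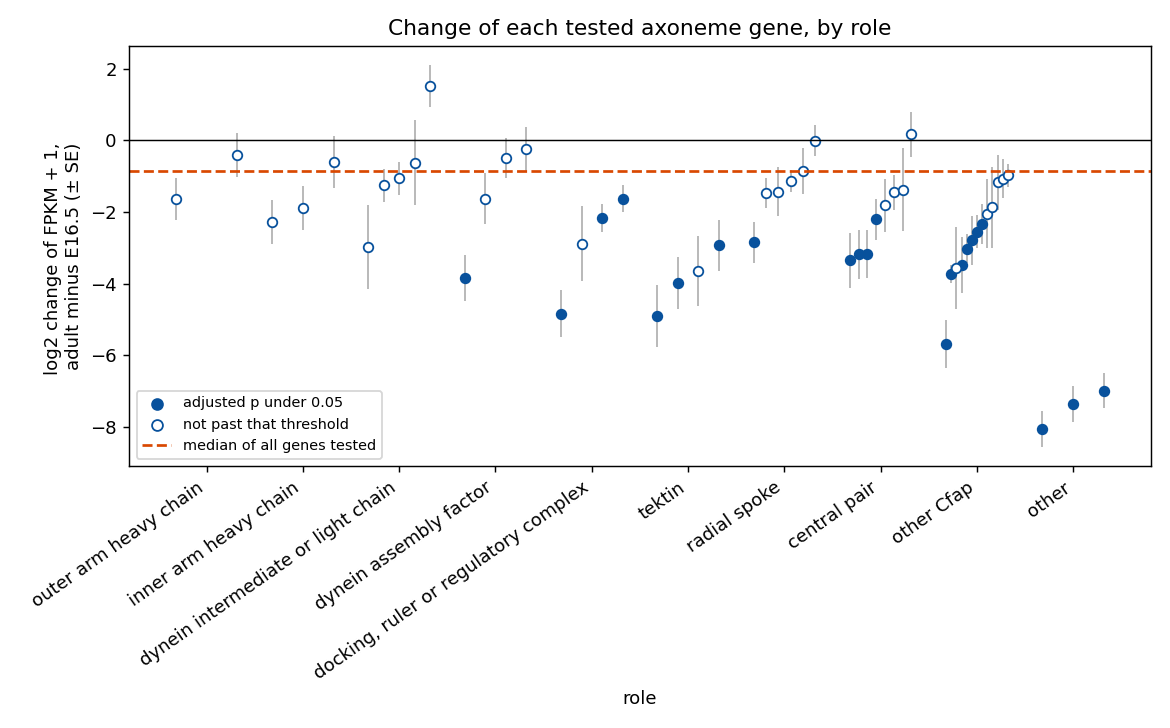
Log2 change of FPKM + 1, adult minus E16.5, of each of the 52 tested axoneme genes (points, with bars of 1 SE), grouped by role, with filled points for an adjusted p under 0.05 and a dashed line at the median of all genes tested. Dynein heavy, intermediate and light chains hold open points only, and the tektins, with a median of -3.82, and the group of Enkur, Fam183b and Riiad1 lie lowest.

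By role, summed FPKM was higher in every E16.5 library than in every adult library for 9 of the 10 groups, the assembly factors being the exception (exact permutation p = 0.1 for the 9, the smallest possible, and 0.3 for the assembly factors). The ratio of mean sums was lowest for the assembly factors, at 1.76, followed by the intermediate and light chains, at 2.13, the radial spokes, at 2.196, and the outer arm heavy chains, at 2.397. It was 3.34 for the central pair, 4.13 for the inner arm heavy chains, 5.003 for the ruler, docking and regulatory genes, 6.50 for the other Cfap genes and 7.34 for the tektins. The same separation was seen in the 30 genes that every cell uses, whose sum was 3496 to 5169 FPKM in the adult and 7124 to 7810 FPKM at E16.5, a ratio of 1.73, and in cytoplasmic dynein, at 720 to 907 and 1367 to 1666 FPKM, a ratio of 1.94. Differences between roles, or between a role and these lists, were not tested, and long genes and low levels are unevenly spread over them.

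**Figure D4:**
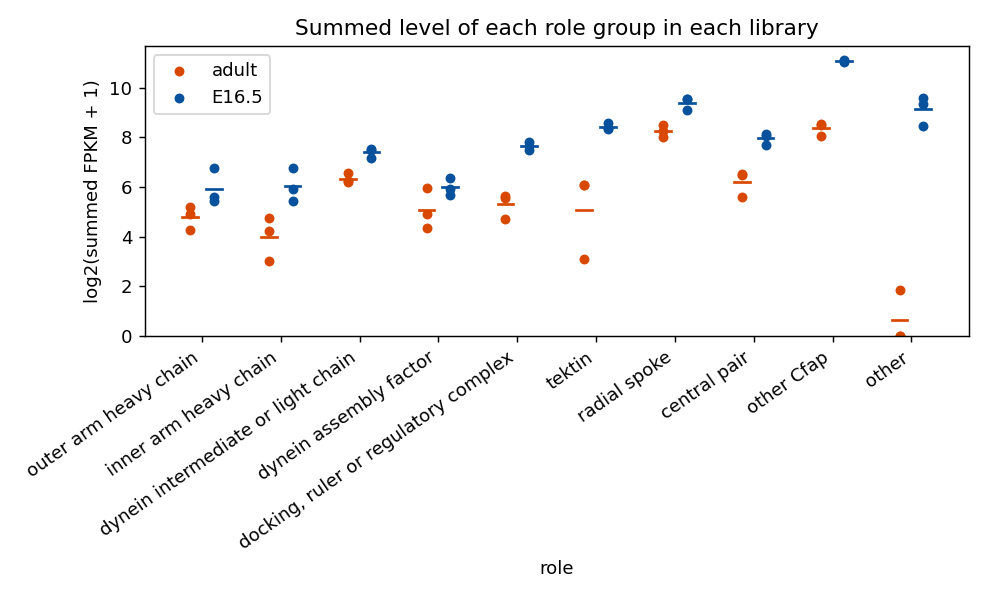
Summed FPKM of each role group, as log2(sum + 1), in each adult and each E16.5 library (points), with a line at the mean of the 3 points. The ages separate in every group but the assembly factors, and the group of Enkur, Fam183b, Riiad1 and Tmem212 has 353 to 767 FPKM at E16.5 and 0 to 2.63 FPKM in the adult.

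Transcription factors and other regulators that switch on motile cilia were set beside the axoneme genes. Of the 17 multiciliation regulators in the table, 13 were tested, 2 were lower in the adult and 0 higher, with a median change of -1.20. Over all genes tested, 8.83% were lower and 2.12% higher, with a median change of -0.86. Foxj1, the forkhead factor of motile ciliogenesis and the gene whose promoter drives the Cre here, had 37.9, 45.8 and 62.4 FPKM in the adult and 208, 198 and 154 FPKM at E16.5 (change -1.93 ± 0.30, adjusted p = 0.0127). E2f5, a partner in the program of multiciliated cells, had 0.165, 0.146 and 0.211 FPKM in the adult and 18.4, 38.5 and 18.3 FPKM at E16.5 (adjusted p = 0.00945). Rfx2, which binds X-boxes, had 1.16, 8.76 and 4.35 FPKM in the adult and 14.7, 29.6 and 24.0 FPKM at E16.5, without overlap between the ages, and did not pass (change -2.24 ± 0.69, adjusted p = 0.0765). Rfx3, of the same family, had a mean 1.89-fold higher at E16.5, with 46.3, 28.9 and 26.2 FPKM in the adult and 44.7, 70.6 and 76.1 FPKM at E16.5, and did not pass (adjusted p = 0.153).

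A second list of motile axoneme genes was written as 82 symbols that the symbol rule does not take. Of these symbols, 73 were in the table, and the others were not matched under other names. In this list 70 genes were tested, of which 34 were lower in the adult and 0 higher, with a median change of -2.38. Its summed FPKM was 4.64-fold higher at E16.5. Dynlrb2, a dynein light chain and its most abundant gene, had 99.1, 49.2 and 0 FPKM in the adult and 564, 498 and 486 FPKM at E16.5, without passing (adjusted p = 0.0773). Cytoplasmic dynein, with dynactin, carries cargo in all cells, and its heavy chains share the motor fold of the axonemal arms. The list of both had 22 tested genes, of which 3 were lower in the adult and 0 higher, with a median of -0.97. The 3 were Dctn3, Dync1i2 and Dync2li1, the last a part of the dynein of intraflagellar transport. Of 30 genes that every cell uses, 5 were lower and 1 higher, with a median of -1.12. The shares over all genes tested were 8.83% lower and 2.12% higher, with a median of -0.86.

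Markers of ependyma were among the genes lower in the adult. Of 10 ependyma markers, 9 were tested and 5 were lower in the adult, and 3 (Ak7, Dynlrb2 and Ccdc153) also stand in the second axoneme list. Over all genes tested, 8.83% were lower in the adult and 2.12% higher. The summed level of the ependyma markers was 207 to 276 FPKM in the adult and 1163 to 1522 FPKM at E16.5. The ependymal marker Ccdc153 was listed at 0 in every library but E16.5 replicate 1, where it had 1.35 FPKM, and S100b, at 0, 8.97 and 0 FPKM in the adult and 0.492, 0 and 0.140 FPKM at E16.5, had a positive change of 0.85 that did not pass. Mia, another of the list, had 386, 251 and 146 FPKM at E16.5 and was listed at 0, 7.75 and 0 FPKM in the adult. The part of ependymal cells in the axoneme differences was not tested. The ChP epithelium itself was present at both ages: of 14 markers, 5 were higher in the adult, and 2, Lmx1a and Otx2, were lower. Every adult library lay above every E16.5 library for 9 of the 14 (7.39% of all genes tested). It lay below for 4 (31.0% of all genes tested), among them Aqp1 and Folr1. Aqp1 had 68.6, 168 and 123 FPKM in the adult and 254, 262 and 226 FPKM at E16.5. Folr1 had 465, 636 and 707 FPKM in the adult and 1049, 904 and 827 FPKM at E16.5. Neither passed. Among the 5 markers higher in the adult, Ttr was listed at 0 in all E16.5 libraries and at 20922 to 31302 FPKM in the adult. Since such a 0 can be a failed estimate, its call is uncertain.

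The remaining marker lists held 5 to 7 genes each in the table, and their sums lay below those of the 61 axoneme genes. Sums over so few genes do not compare levels per gene. Single markers could be high, such as Hbb-bs, at 299, 3.90 and 86.4 FPKM at E16.5, and Mbp, at 1.05, 6.30 and 58.7 FPKM in the adult. Counts of genes in these lists stand beside shares of 8.83% lower in the adult and 2.12% higher over all genes tested. Summed over its list, mesenchyme and fibroblasts had 13.3 to 22.04 FPKM in the adult and 58.6 to 69.4 FPKM at E16.5 (1 of 6 tested genes lower in the adult), and endothelium 0.435 to 18.6 and 12.3 to 40.0 FPKM (0 of 2). Macrophages had 0.0695 to 4.63 FPKM in the adult and 0.548 to 8.41 FPKM at E16.5 (0 of 2), and red blood cells 0 to 6.49 and 54.1 to 324 FPKM (2 of 3 lower). Neurons and neural progenitors had 0.145 to 9.88 FPKM in the adult and 26.9 to 114 FPKM at E16.5 (0 of 5), oligodendrocytes and astrocytes 4.65 to 73.0 and 7.01 to 15.3 FPKM (0 of 4), and cell cycle genes 4.83 to 45.8 and 51.7 to 96.7 FPKM (1 of 5 lower). The part of these cells in the axoneme differences was not tested.

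Transcript length went with the axoneme values in E16.5 replicate 3. Over the 52 tested members, the difference of replicate 3 from the mean of the other 2 E16.5 libraries had r = 0.55 and rho = 0.51 with the log2 length of the longest transcript, where all genes tested had r = 0.12. These are correlations across genes, which share their libraries and are not independent replicates. Of the 14 members with a transcript under 2000 bases, replicate 3 was the lowest E16.5 library for 8 and the highest for 1. Of the 12 members with 5000 bases or more, which include the dynein heavy chains, it was the lowest for 1 and the highest for 9. Over the same 52 members the age change had r = 0.45 and rho = 0.34 with length, and over all 11531 tested genes with a length r = 0.27 and rho = 0.28. The short members were lower in the adult in 8 of 14 cases, with a median change of -3.31, and the long members in 3 of 12, with a median of -1.73. Over all genes tested, of any length, 8.83% were lower and the median was -0.86. That share was not counted by length. The part of length in the age difference was not tested.

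**Figure D5:**
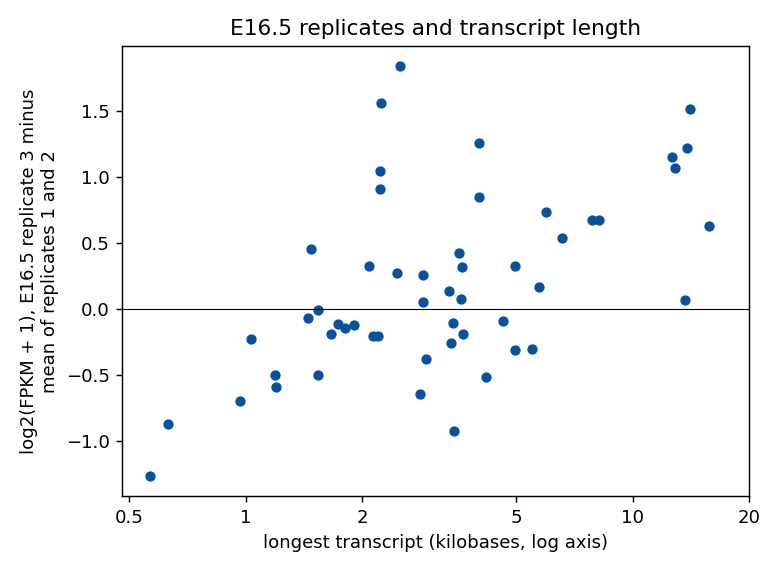
Difference of E16.5 replicate 3 from the mean of E16.5 replicates 1 and 2, on the log2(FPKM + 1) scale, against the length of the longest transcript in kilobases on a log axis, with 1 point for each of the 52 tested axoneme genes. Points of the shortest genes lie below 0 and most of those over 5 kilobases above it (r = 0.55 across genes).

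Among the 22 members lower in the adult, 4 (Cfap126, Enkur, Fam183b and Riiad1) passed under every alternative setting that tested them, leaving out any 1 library included, which was 19 settings for Cfap126 and 18 for the other 3. Without E16.5 replicate 1, 2 or 3, only these 4 passed, and over all genes the share lower in the adult fell to 0.22%, 0.14% and 0.565%. Enkur, Fam183b and Riiad1 were listed at 0 in every adult library, and such a 0 can be a failed estimate. Dividing by a scaling factor or leaving out an adult library could not change those zeros, so such settings could not test these calls. The setting with genes above 0 in every library left the 3 genes out. Without adult replicate 3, the shallowest library, 25 members passed (11.6% of all genes) and the median change was -1.92. Without adult replicate 1, 16 members passed (4.63%), 14 of them among the 22, and without adult replicate 2, 21 did (14.7%), 18 of them among the 22. Cfap43 and Cfap53 passed under 16 of the 19 settings, Ccdc39 under 15 and Cfap45 under 14, and Ccdc40 under 14 of the 18 that tested it. Spag6, Tekt1 and Ccdc114 passed under 8 of the 19, and Cfap20 and Cfap57 under 6.

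Scaling moved the counts. Quantile normalization, which forces the libraries to the same distribution, left 11 members lower and 0 higher, with 3.87% of all genes lower and 4.02% higher. Scaling to the same sum gave 36 members lower and 0 higher, with 27.9% and 1.03% of all genes. With Mir6236 left out of that sum, 26 members were lower (11.5% of all genes), and median-ratio scaling gave 16 (5.69%). A pseudocount of 0.1 gave 13 members (7.44% of all genes) and one of 0.01 gave 12 (6.57%). Testing every gene gave 9 (0.834%), genes with a mean above 5 FPKM gave 22 of 45 (10.1%), and genes above 0 in every library, fitted alone, gave 13 of 31 (6.87%). The count was 17 without an intensity trend (8.18% of all genes), 28 with weights for the libraries (11.2%), 7 at a threshold of 0.01 (1.14%) and 14 with a replicate block (3.9%). In each of these settings the share of members lower in the adult lay above the share of all genes.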

How the data were processed

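The authors deposited 1 table of gene FPKM for the 6 libraries, made by the methods from 50-bp single-end reads aligned to mm10 with STAR and passed to Cuffquant. The submitters' processing notes name STAR 2.4.0 and Cufflinks. The annotation given to Cuffquant and its use of strand are not given in the sources used here, and the read counts behind the authors' own test were not analysed here. Libraries were made with a SMARTer Pico kit after ribosomal RNA depletion.

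The deposited FPKM were taken unchanged. The test was limma 3.58.1 (R 4.3.3), with a trend on intensity and age as the only term, on log2(FPKM + 1) of the 11601 genes of 24354 whose mean over the 6 libraries was above 1 FPKM. A fold on that scale understates the change of low genes. Adjustment was by Benjamini-Hochberg, at a threshold of 0.05, and single values were compared by exact permutation tests. The test was tried on simulated data first. Groups are the ages in the labels, which number the replicates within each age. Nothing in the labels pairs the libraries. Same-numbered deviations were uncorrelated (r = 0.00, 0.04 and 0.01), which cannot exclude that same-numbered libraries shared a batch. Depth was read from low values of genes with a transcript over 1000 bases, at the transcript length minus 200 bases, where 72.6% to 87.8% of low values lay within 0.1 of a whole read (20% by chance). FPKM carry no counting interval.

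The members and all lists were chosen with earlier results of these data known. Values are given for members past the threshold, the 3 most abundant tested members of each role, tested members listed at 0 in every adult library, the 3 most positive changes and, in other lists, some of the genes past the threshold and of the most abundant, with Foxj1. Per-library values of Dnah5, Dnaic1, Cfap44, Cfap52, Tmem212, Rfx2, Ccdc153, S100b, Aqp1 and Folr1 fall outside that rule and were chosen after they were seen. The alternatives were other pseudocounts, filters, scalings, limma without a trend or with array weights, a threshold of 0.01, a replicate block and leaving out each library.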

Additional observations from a re-analysis of the deposited data

How the results depend on the processing

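No member was higher in the adult under any of the 19 settings, by limma. The count of members lower in the adult, 22 as reported, was 13 with a pseudocount of 0.1 and 12 with 0.01, 9 with no filter on low values, 13 of 31 among genes above 0 in every library, 36 with scaling to the same sum, 11 with quantile normalization and 7 at a threshold of 0.01. Leaving out a library gave 4 to 25. Over all genes tested the share lower in the adult was 8.83% as reported, 27.9% with scaling to the same sum and 3.87% with quantile normalization. That share was 7.44% and 6.57% with the smaller pseudocounts and 0.834% with no filter. It was 6.87% among genes above 0 in every library, 1.14% at a threshold of 0.01 and 0.14% to 14.7% without 1 library. With a replicate block the count was 14 (3.9% of all genes), all of them among the 22. The labels do not say whether the numbers pair libraries. The median change, -2.11 as reported, was -2.74 and -2.95 with the smaller pseudocounts, -1.64 without a filter, -1.47 among genes above 0 in every library, -1.80 with median-ratio scaling, -2.81 with the same-sum scaling and -1.62 with quantile normalization, and ran from -2.37 to -1.91 without 1 library. Relative to the median of all genes tested it was -1.26 as reported, -1.49 and -1.47 with the smaller pseudocounts, -1.64 without a filter, -1.49 with a mean above 5 FPKM and -1.47 with quantile normalization, and ran from -1.54 to -1.05 without 1 library. The causes of these differences were not tested.

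Of 957 gene and setting pairs, 755 kept their direction and their side of the threshold, 145 lost it, 36 gained it and 21 changed sign. Only pairs of the 22 members that had passed could lose it, so 957 is not the base for the 145. None of the 9 genes that changed sign had passed the threshold. With quantile normalization the changes were 0.031 for Dnaaf3, 0.19 for Dnaaf5, 0.35 for Dnah11, 0.55 for Dnah2, 0.22 for Dnaic1, 0.43 for Rsph3a and 0.43 for Rsph9. With median-ratio scaling they were 0.085 for Dnaaf5 and 0.33 for Rsph9, with array weights -0.12 for Cfap74 and 0.041 for Rsph9, and with the same-sum scaling -0.58 for Cfap74. Without 1 library the change ran from -2.14 to 0.094 for Cfap69, from -0.38 to 0.48 for Cfap74, from -0.83 to 0.064 for Dnaaf5, from -0.75 to 0.10 for Dnah11, from -1.52 to 0.65 for Dnaic1 and from -0.25 to 0.39 for Rsph9. One read per kilobase was worth 0.113 to 0.327 FPKM in the adult libraries, yet Dnal4 was listed at 0 in adult replicate 3 and at 16.8 and 31.4 FPKM in the other 2. Whether such zeros are failed estimates was not tested.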
